A study of Mus musculus with 15 samples.

Results

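The 10 ionotropic glutamate receptor genes followed here were read in mouse substantia nigra that had received a viral vector on one side: the AMPA receptor subunits Gria1, Gria2, Gria3 and Gria4 and the NMDA receptor subunits Grin1, Grin2a, Grin2b, Grin2c, Grin2d and Grin3a. They were taken by gene symbol from the tables of both mouse sets, and made up 10 of 36264 genes in the miR-181 table and 10 of 36257 genes in the GFP table. All 10 passed the filter on low values in both tables.

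RNA was sequenced in 15 libraries of dissected substantia nigra from 8 C57Bl/6J mice, taken 3 weeks after stereotaxic injection. The miR-181 set held 3 injected sides, which had received 1.65e10 vector genomes (vg) of AAV-hSYN1-miR-181, and the 3 uninjected sides of the same mice. The GFP set held 4 injected sides, which had received 1e10 vg of AAV-hSYN1-GFP, and 5 uninjected sides, since GFP mouse 5 gave an uninjected side only. AAV is an adeno-associated virus used to carry genes into cells, hSYN1 is the human synapsin 1 promoter, which is active in neurons, and GFP is green fluorescent protein. The mice were otherwise naive, and the age and sex of the animals were not given in the sources used here. The labels name the microRNA as miR-181 without its family member, and the vectors differed in dose as well as in cargo. The miR-181 libraries were read as 75-base pairs and the GFP libraries as 50-base pairs, on different instruments, so the set and the sequencing run cannot be told apart and levels were not tested between sets.

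Values are TPM, a measure of transcript abundance corrected for transcript length, after the authors' scaling of each library, called scaled TPM here. The libraries summed to between 970505 and 1040288 scaled TPM and held between 15022 and 15563 genes at 1 or more. The reads behind single libraries cannot be recovered from such values, so no counting intervals are given. Dopamine neuron markers (12 genes, Th and Slc6a3 among them) summed to between 1140 and 2036 scaled TPM in miR-181 injected sides and between 1500 and 1989 in miR-181 uninjected sides. In the GFP set they summed to between 2359 and 2788 in injected sides and between 1837 and 2911 in uninjected sides, so RNA of its defining cells was present in every library. Serotonin neuron markers (5 genes), which mark raphe nuclei, were at between 44.3 and 104 scaled TPM in the miR-181 set and between 6.10 and 9.99 in the GFP set. Pituitary hormone RNA (6 genes) summed to 2451 scaled TPM in the injected side of GFP mouse 1 and 50092 in its uninjected side, against 3.00 to 18.7 in the other 13 libraries, and the GFP changes are therefore also given without that mouse.

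Glutamate is the main fast excitatory transmitter of the brain. AMPA receptors are assembled from GluA subunits, the products of the Gria genes, and carry the fast part of the synaptic current. NMDA receptors combine the obligatory GluN1 subunit with GluN2 or GluN3 subunits, open when glutamate meets a depolarised membrane, and let calcium in. In the substantia nigra both receptor classes receive input from the subthalamic nucleus and other sources onto dopamine neurons and onto the GABA neurons of the pars reticulata, and the calcium that enters through them has been studied as a hazard to dopamine neurons. MicroRNAs of the miR-181 family pair with messenger RNAs chiefly through their seed (bases 2 to 8), and Gria2 has been reported as a target of miR-181a in cultured rat hippocampal neurons.

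The mature sequences, from RefSeq on GRCm38.p6, show what the mouse family has in common. Capitals mark the seed, which is the same in all 4.
mmu-miR-181a-5p: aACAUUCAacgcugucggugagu
mmu-miR-181b-5p: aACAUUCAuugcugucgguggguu
mmu-miR-181c-5p: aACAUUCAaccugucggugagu
mmu-miR-181d-5p: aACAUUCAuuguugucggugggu

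Matches to this seed were looked for in 1 annotated 3′ UTR per subunit, the longest (GENCODE annotation of GRCm38, transcript strand only). The motifs searched were TGAATGT, which pairs with bases 2 to 8, and GAATGTA, which pairs with bases 2 to 7 followed by an A. Where both overlap they form the 8-base motif TGAATGTA, which none of the 10 genes held. At least 1 match was held by 5 subunits, 10 matches in all, and they are printed here because a seed match is the sequence feature through which the injected microRNA could pair with these transcripts. Capitals mark the match, and each stretch reads 5′ to 3′ on the strand of the gene.
Gria2, chr3:80688569-80688593, minus strand: gtcctggcatgggaaTGAATGTcag
Gria2, chr3:80684195-80684219, minus strand: atcatgaagaatttgTGAATGTctt
Gria3, chrX:41676979-41677003, plus strand: ttgtgtaaatctttaGAATGTAaat
Grin2a, chr16:9571548-9571572, minus strand: gaaaacagaggtcagGAATGTAcag
Grin2a, chr16:9568730-9568754, minus strand: gttgtcttcagagtaTGAATGTtag
Grin2b, chr6:135730607-135730631, minus strand: tgtaccactcgacagTGAATGTgct
Grin2b, chr6:135727529-135727553, minus strand: atggcagtttattggTGAATGTgtt
Grin2b, chr6:135724173-135724197, minus strand: aatctaggcaatttaTGAATGTcca
Grin2b, chr6:135715830-135715854, minus strand: gcagcaatcgtcaggGAATGTAtgg
Grin3a, chr4:49664509-49664533, minus strand: ggcaatgtggctaaaGAATGTAttg

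Matches came with long UTRs. Of 14335 tested genes with a 3′ UTR, 24.8% held a match, and the share grew with UTR length. Gria2, with a 3′ UTR of 7268 bases, held 2 matches, and 79.7% of genes with a UTR within 20% of that length held at least 1. Grin2b, with the longest UTR of the 10 genes at 18865 bases, held 4, and 100% of the 8 genes of like length held at least 1. Grin2a held 2 matches in 9929 bases, where 89.1% of genes of like length held one. Gria3 held 1 match in 2586 bases and Grin3a held 1 in 3615 bases, with shares of 35.3% and 45.8% for genes of like length. No match was found in Gria1 (2598 bases), Gria4 (2256), Grin1 (1187), Grin2c (402) or Grin2d (897). These matches are a description of letters in 1 annotated UTR per gene, and pairing was not measured.

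**Figure D1:**
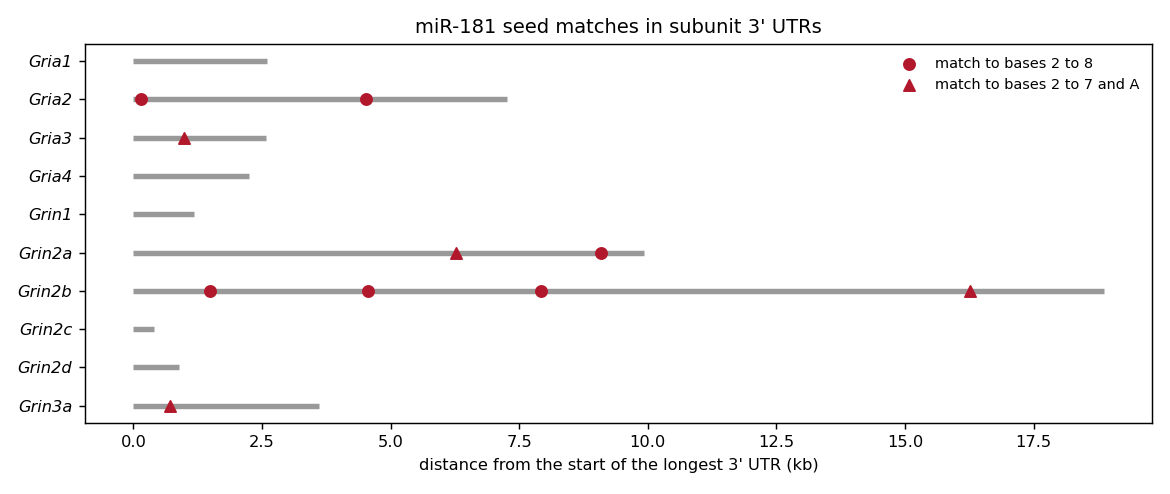
Position of miR-181 seed matches along the longest 3′ UTR annotated for every subunit. The horizontal axis gives the distance from the start of the UTR in kilobases, grey bars give the UTR to scale, circles mark matches to bases 2 to 8 and triangles matches to bases 2 to 7 and A; Gria2, Gria3, Grin2a, Grin2b and Grin3a hold the 10 matches.

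The levels of the subunits fell into a similar order in all 4 groups. Grin1 stood highest, averaging 154 ± 10.3 scaled TPM in miR-181 injected sides and 174 ± 5.11 in miR-181 uninjected sides (SD, n = 3 each), against 168 ± 6.17 in GFP injected sides (n = 4) and 170 ± 14.5 in GFP uninjected sides (n = 5). Gria1 and Gria2 came next, and their ranges overlapped each other in every group. Gria4 came below them and Gria3 below Gria4, with no overlap between neighbours at either step. Grin3a came next, then Grin2c and Grin2d, whose ranges overlapped each other in every group. Grin3a stood clear of both in the miR-181 set, while in the GFP set its range overlapped that of Grin2d in injected sides and those of both in uninjected sides. Grin2b and Grin2a were lowest. Their ranges did not overlap in the miR-181 set, with Grin2b higher, and did overlap in the GFP set.

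**Figure D2:**
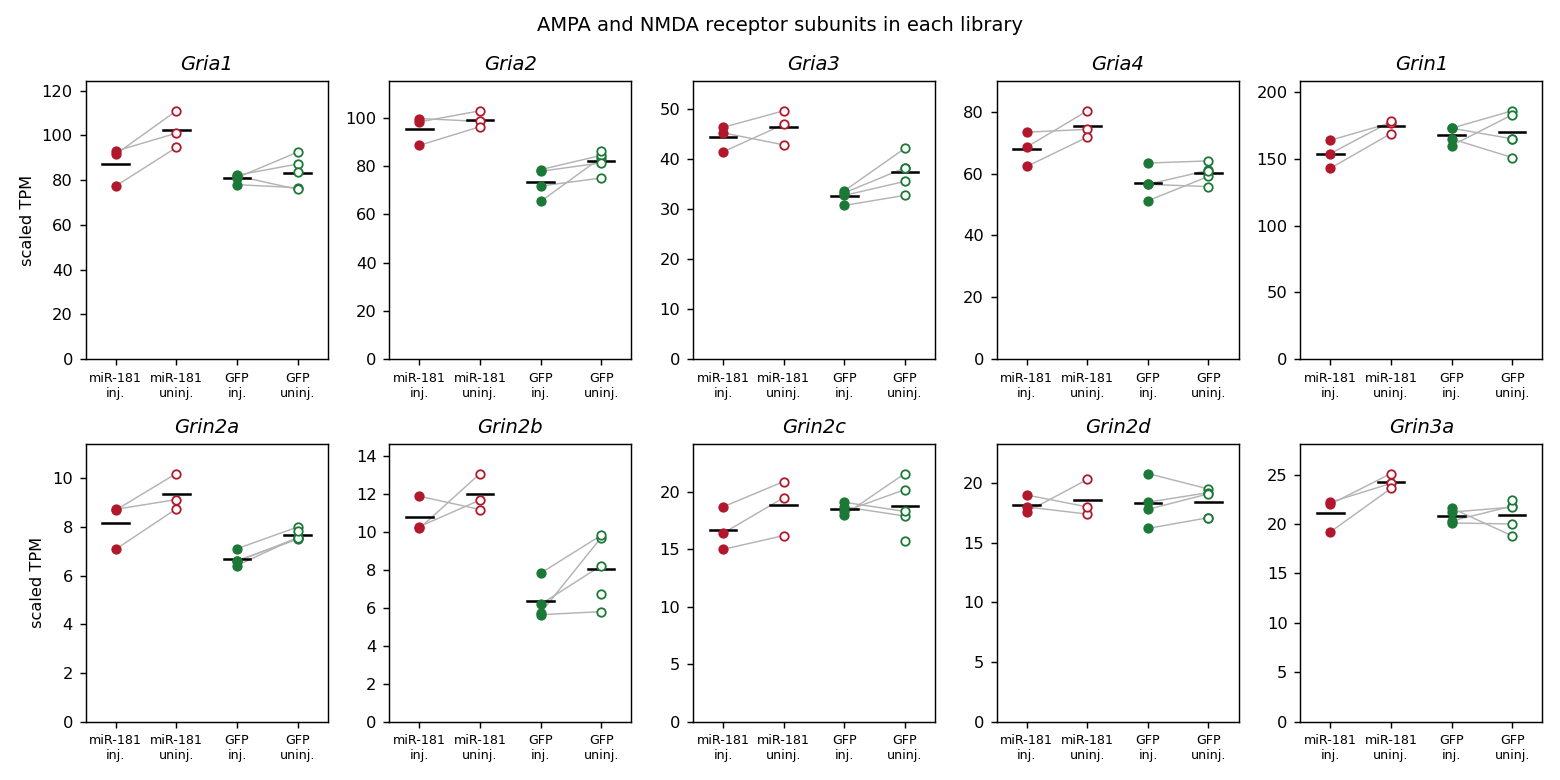
Level of each subunit in every library, in scaled TPM on linear axes that start at 0, one panel per gene. Filled points are injected sides and open points uninjected sides, in red for the miR-181 set and in green for the GFP set; grey lines join the sides of 1 mouse and black bars are group means. Injected sides of Gria1, Grin1, Grin2a and Grin3a lie below all uninjected sides in the miR-181 set, and in the GFP set this holds for Grin2a. Over all genes tested it holds for 14.5% in the miR-181 set and 1.00% in the GFP set.

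No subunit passed the test used here in any comparison. With limma on log2(scaled TPM + 0.5) and Benjamini-Hochberg adjustment over all genes tested, at a threshold of 0.05, 0 of the 10 subunits passed for miR-181 injected against uninjected sides, where 4.39% of 15453 genes passed as higher and 1.49% as lower. Among GFP mice 0 of 10 passed, with or without the libraries of mouse 1, which held pituitary RNA, against 1.34% of 15274 genes as higher and 0.0131% as lower. For the difference between the sets in the change per mouse 0 of 10 passed, against 0.00675% of 14824 genes as higher and 0.0270% as lower. The smallest adjusted p among subunits was 0.124 in the miR-181 set, 0.389 in the GFP set and 0.318 for the difference. The 2 fits within a set had no term for mouse, though the sides were paired. With mouse as a block in limma the smallest adjusted p was 0.0794 (Gria1) in the miR-181 set and 0.384 in the GFP set. At an unadjusted p under 0.05, 3 subunits were lower in the miR-181 set (10.7% of all genes were), 3 in the GFP set (2.68%) and 1 in the difference (8.25%). In the authors' first test Grin1 and Grin3a had a q under 0.05 in the miR-181 set, at 0.0260 and 0.0462. In the authors' second test neither did, at 0.0910 and 0.110.

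The estimates were small and lay on the same side of 0 within each set. All 10 log2 changes were below 0 in the miR-181 set, between -0.23 and -0.03, where 49.2% of all genes tested were below 0. All 10 were also below 0 in the GFP set, between -0.31 and -0.01, where 48.2% of genes were. The median log2 change of the subunits was -0.16 in the miR-181 set and -0.06 in the GFP set, and that of all genes was 0.004 and 0.005. Such a fall was not particular to these subunits. Of 12 GABA-A receptor subunits, 10 were below 0 in the miR-181 set and 12 in the GFP set, with medians of -0.23 and -0.15. All 7 metabotropic glutamate receptor genes were below 0 in both sets. Of 9 kainate and delta receptor genes, 7 were below 0 in the miR-181 set and 4 in the GFP set. For the change with miR-181 minus the change with GFP, 6 of 10 were below 0, against 50.0% of genes, with a median of -0.04 over the subunits and 0.000 over all genes. Leaving out single libraries or mice, at least 9 of the 10 stayed below 0 in the miR-181 set and at least 6 in the GFP set.

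Single libraries moved these estimates. The injected side of miR-181 mouse 2 had the lowest pan-neuronal marker sum of the miR-181 injected sides (5609 scaled TPM over 14 genes) and the highest sums of microglia markers (2006 over 10 genes) and T cell markers (128 over 7 genes). Without that library the median log2 change of the subunits in the miR-181 set was -0.11. Gria1 was then at -0.14, Gria2 at -0.001, Gria3 at -0.019, Gria4 at -0.09, Grin1 at -0.13, Grin2a at -0.09, Grin2d at -0.020 and Grin3a at -0.13, all nearer 0 than with every library, while Grin2b was at -0.21 and Grin2c at -0.25, both farther from it. In the GFP set the median was -0.09 without the uninjected library of mouse 1 and -0.08 without both of its libraries. Without the uninjected library Gria1 was at -0.07, Gria2 at -0.20, Gria3 at -0.24, Gria4 at -0.11, Grin1 at -0.06, Grin2a at -0.20, Grin2b at -0.41, Grin2c at -0.022, Grin2d at -0.038 and Grin3a at -0.043, all farther below 0 than with it. Without both libraries of mouse 1 the GFP changes lay between -0.36 (Grin2b) and 0.017 (Grin2d, the one above 0). Over these fits the smallest adjusted p of a subunit was 0.125 (Gria3). In bulk tissue fewer cells of a type and less RNA per cell cannot be told apart.

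**Figure D3:**
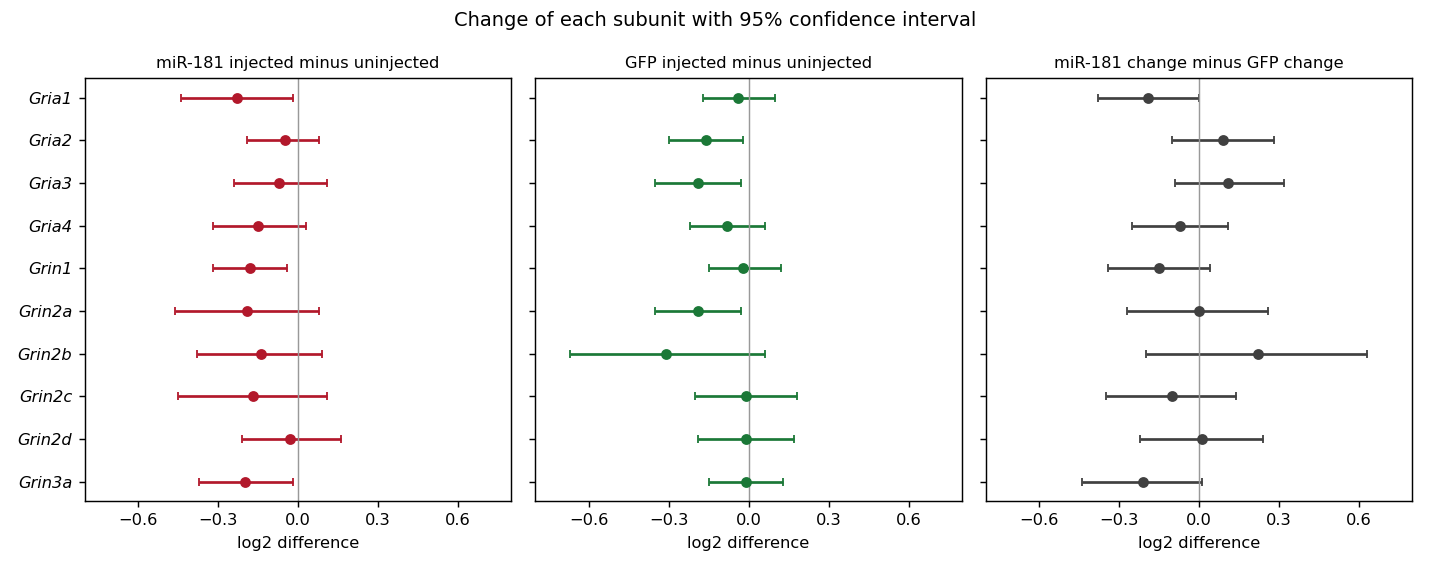
Log2 difference of each subunit with its 95% confidence interval from limma, for miR-181 injected minus uninjected sides (left), GFP injected minus uninjected sides (middle) and the change with miR-181 minus the change with GFP (right). Intervals leave out 0 for Gria1, Grin1 and Grin3a on the left and for Gria2, Gria3 and Grin2a in the middle. On the right that of Gria1 ends just below 0, at -0.00 to the second decimal place. None of these passed after adjustment over all genes.

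Gria1 encodes GluA1, the AMPA subunit whose delivery to synapses follows activity (gene at chr11:57011387-57330244, plus strand). It had 93.0, 77.4 and 91.6 scaled TPM in miR-181 injected sides of mice 1, 2 and 3, against 101, 94.6 and 111 in their uninjected sides. Every injected value lay below every uninjected value, as in 14.5% of all genes tested. The means were 87.3 ± 8.66 in injected and 102 ± 8.12 in uninjected sides (SD, n = 3 each), a log2 change of -0.23 ± 0.09 (SE, adjusted p = 0.184), and -0.14 without the injected library of mouse 2. GFP injected sides had 78.0, 81.1, 82.2 and 81.9 scaled TPM, against 76.6, 92.5, 87.2, 75.9 and 83.7 in GFP uninjected sides, so those groups overlapped. The GFP log2 change was -0.04 ± 0.06 (adjusted p = 0.886). Gria1 was lower on the injected side in 3 of 3 miR-181 mice, by -0.12, -0.29 and -0.27, and in 2 of 4 GFP mice. The difference between the sets was -0.19 ± 0.08 (adjusted p = 0.318), with a 95% interval that ended at 0 to the second decimal place.

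Gria2 encodes GluA2, which after RNA editing keeps AMPA receptors largely closed to calcium (chr3:80681450-80802835, minus strand). Its 3′ UTR holds 2 of the seed matches. In the miR-181 set it had 99.8, 88.7 and 98.4 scaled TPM in injected sides, against 98.6, 96.4 and 103 in uninjected sides. These groups overlapped, with means of 95.6 ± 6.05 and 99.2 ± 3.13. The log2 change was -0.05 ± 0.06 (adjusted p = 0.630), with a 95% interval of -0.19 to 0.08. GFP values were 71.8, 65.4, 78.6 and 77.9 in injected sides, against 75.1, 83.6, 84.5, 81.4 and 86.4 in uninjected sides. The injected sides were lower in 4 of 4 GFP mice, while the groups overlapped through the uninjected side of mouse 1. The GFP log2 change was -0.16 ± 0.06 (adjusted p = 0.418), and -0.20 (adjusted p = 0.228) without the uninjected library of mouse 1 that held pituitary RNA. For the difference between sets the value was 0.09 ± 0.08 (adjusted p = 0.663), the estimate lying nearer 0 with miR-181 than with GFP.

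Gria3 encodes GluA3 (chrX:41400854-41678601, plus strand) and holds 1 seed match. Its miR-181 values were 45.2, 41.4 and 46.3 scaled TPM in injected sides, against 42.8, 46.9 and 49.6 in uninjected sides. The groups overlapped, and the log2 change was -0.07 ± 0.07 (adjusted p = 0.641). Its GFP values were 30.7, 32.7, 33.2 and 33.6 in injected sides, against 32.7, 35.5, 38.2, 42.1 and 38.2 in uninjected sides. It was lower on the injected side in 4 of 4 GFP mice, with a log2 change of -0.19 ± 0.07 (adjusted p = 0.389). Without the uninjected library of GFP mouse 1 this was -0.24 (adjusted p = 0.125). The difference between sets was 0.11 ± 0.09 (adjusted p = 0.599).

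Gria4 encodes GluA4, which gives AMPA receptors fast kinetics in many interneurons (chr9:4417896-4796234, minus strand). It had 73.4, 62.3 and 68.6 scaled TPM in miR-181 injected sides, against 74.3, 71.8 and 80.3 in uninjected sides. In GFP mice it had 56.5, 51.2, 56.5 and 63.4 in injected sides, against 55.8, 59.1, 61.1, 64.1 and 60.9 in uninjected sides. Both pairs of groups overlapped. The log2 changes were -0.15 ± 0.07 in the miR-181 set (adjusted p = 0.277) and -0.08 ± 0.06 in the GFP set (adjusted p = 0.738).

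Grin1 encodes GluN1, the subunit every NMDA receptor needs, which binds glycine or D-serine (chr2:25291181-25319187, minus strand). In the miR-181 set it had 164, 143 and 154 scaled TPM in injected sides, against 177, 169 and 178 in uninjected sides. The injected group lay below the uninjected group without overlap, as in 14.5% of all genes tested. The log2 change of -0.18 ± 0.06 had the smallest p of the 10 subunits in that set, 0.0169 before and 0.124 after adjustment. GFP mice had 165, 173, 173 and 160 in injected sides, against 151, 165, 186, 183 and 165 in uninjected sides, which spanned the injected range on both sides. The GFP log2 change was -0.02 ± 0.06 (adjusted p = 0.952), and ran from -0.06 to 0.029 over fits without single libraries or mice. The sets differed by -0.15 ± 0.08 (adjusted p = 0.425). Without the injected library of miR-181 mouse 1, Grin1 passed the threshold in the miR-181 set with a log2 change of -0.23 (adjusted p = 0.0426). In that fit 1924 genes passed, against 908 with every library. The authors' deposited table gives Grin1 a q of 0.0260 in its first test and 0.0910 in its second.

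Grin3a encodes GluN3A, which lowers the calcium flow and magnesium block of NMDA receptors (chr4:49661611-49845744, minus strand). It had 22.2, 19.2 and 22 scaled TPM in miR-181 injected sides, against 24.1, 23.6 and 25.1 in uninjected sides. The injected group was lower without overlap, as in 14.5% of all genes tested. The log2 change was -0.20 ± 0.07 (adjusted p = 0.172), and each of the 3 mice was lower on the injected side, by -0.11, -0.29 and -0.19. GFP injected sides had 21.6, 20.3, 21.2 and 20.1, against 18.8, 21.8, 21.7, 20 and 22.4 in GFP uninjected sides. Those groups lay over each other, with a log2 change of -0.01 ± 0.06 (adjusted p = 0.987) and a 95% interval of -0.15 to 0.13. The GFP estimate was 0.017 with mouse as a block, which left out mouse 5. It was also 0.017 with no block and without the uninjected library of mouse 5. The difference between sets was -0.21 ± 0.10 (adjusted p = 0.347), with a 95% interval of -0.44 to 0.01. In the authors' deposited table the miR-181 q of Grin3a was 0.0462 in the first test and 0.110 in the second. The other 8 subunits had a q of 0.174 or more in both tests of the miR-181 table, and all 10 had 0.267 or more in the GFP table.

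Grin2a encodes GluN2A, a glutamate-binding subunit that gains ground over GluN2B as forebrain circuits mature (chr16:9567898-9995560, minus strand). It was the one subunit whose injected and uninjected sides did not overlap in either set. The miR-181 values were 8.73, 7.09 and 8.70 scaled TPM in injected sides, against 9.13, 8.75 and 10.2 in uninjected sides. The highest injected value, 8.73, lay just below the lowest uninjected value, 8.75, and 14.5% of genes tested were lower without overlap in that set. The GFP values were 6.62, 6.42, 6.59 and 7.11 in injected sides, against 7.50, 7.57, 7.55, 8.0 and 7.82 in uninjected sides, a separation seen in 1.00% of genes tested. Both log2 changes came to -0.19, with an SE of 0.11 in the miR-181 set (adjusted p = 0.373) and 0.07 in the GFP set (adjusted p = 0.410). Without the injected library of miR-181 mouse 2 the miR-181 change was -0.09 (adjusted p = 0.705). All 7 mice with both sides were lower on the injected side, by log2 changes of -0.29 to -0.06 for miR-181 and of -0.22 to -0.16 for GFP. The difference between sets had an adjusted p of 0.990 and a 95% interval of -0.27 to 0.26.

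Grin2b encodes GluN2B, the GluN2 subunit that dominates early in development (chr6:135713233-136173511, minus strand). It had 10.3, 11.9 and 10.2 scaled TPM in miR-181 injected sides, against 11.7, 11.2 and 13.1 in uninjected sides. For GFP the values were 5.65, 5.74, 6.19 and 7.84 in injected sides, against 5.81, 9.72, 8.24, 9.84 and 6.73 in uninjected sides. The groups overlapped in both sets, and the GFP uninjected sides were more spread, relative to their mean, than those of any other subunit. Its log2 changes were -0.14 ± 0.10 in the miR-181 set (adjusted p = 0.429) and -0.31 ± 0.16 in the GFP set (adjusted p = 0.614). Grin2b holds the most seed matches of the 10 genes, and its difference between sets was 0.22 ± 0.18 (adjusted p = 0.631), the estimate lying nearer 0 with miR-181 than with GFP.

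Grin2c and Grin2d encode GluN2C, best known from cerebellar granule cells, and GluN2D, a slowly closing subunit of diencephalon and midbrain (chr11:115249169-115267243 and chr7:45831883-45878378, both on the minus strand). Grin2c had 16.4, 18.7 and 15 scaled TPM in miR-181 injected sides, against 19.5, 20.9 and 16.2 in uninjected sides. All 3 mice were lower on the injected side, by -0.25, -0.16 and -0.10, while the groups overlapped and the log2 change was -0.17 ± 0.12 (adjusted p = 0.445). Grin2d had 17.6, 18.0 and 19.0 in miR-181 injected sides, against 20.3, 17.4 and 18.0 in uninjected sides, with a log2 change of -0.03 ± 0.08 (adjusted p = 0.864). With GFP, Grin2c averaged 18.5 ± 0.453 in injected and 18.7 ± 2.28 in uninjected sides, and Grin2d averaged 18.3 ± 1.91 and 18.4 ± 1.22 (SD, n = 4 injected and 5 uninjected). Both GFP log2 changes were -0.01, with 95% intervals of -0.20 to 0.18 for Grin2c and -0.19 to 0.17 for Grin2d.

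Set beside the seed matches, the changes overlapped between subunits with and without a match. The 5 subunits with a match had log2 changes between -0.20 and -0.05 in the miR-181 set, with a median of -0.14, and the 5 without a match between -0.23 and -0.03, with a median of -0.17. The GFP set, where no miR-181 was injected, had medians of -0.19 with a match and -0.02 without. For the change with miR-181 minus the change with GFP the medians were 0.09 with a match and -0.10 without. These are descriptions with no test, since the genes are few and were not drawn at random.

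The mix of subunit RNA was read from shares within a library, which do not depend on its scaling. The shares pool all cell types of the tissue, and the subunits of receptor proteins were not measured. Of the summed AMPA subunits, Gria1 made up 29.9%, 28.7% and 30% in miR-181 injected sides, against 32.0%, 30.5% and 32.3% in their uninjected sides. With GFP it made up 32.9%, 35.2%, 32.8% and 31.9% in injected sides, against 31.9%, 34.2%, 32.2%, 28.8% and 31.1% in uninjected sides. The share was thus lower on the injected side in 3 of 3 miR-181 mice and higher in 4 of 4 GFP mice. A screen of 10 levels and 16 sums, shares and ratios flagged this split, which was not tested. The ratio of Gria2 to Gria1 split the same mice, at 1.10 ± 0.0420 in miR-181 injected and 0.972 ± 0.0465 in uninjected sides, and at 0.909 ± 0.0699 in GFP injected and 0.992 ± 0.0641 in uninjected sides. The Gria2 share took the opposite course to that of Gria1 in the miR-181 set, at 32.4 ± 0.427% in injected and 30.7 ± 0.709% in uninjected sides (SD, n = 3 each), with each injected value above each uninjected value. GFP injected sides had a Gria2 share of 30.1 ± 1.25% (n = 4), against 31.3 ± 0.496% in uninjected sides (n = 5), lower in 3 of 4 mice. The Gria3 share was 15% in injected and 14.4% in uninjected sides of the miR-181 set, and 13.4% in injected and 14.2% in uninjected sides of the GFP set. The Gria4 share was 23.1% in injected and 23.3% in uninjected sides of the miR-181 set, and 23.3% in injected and 22.9% in uninjected sides of the GFP set.

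**Figure D4:**
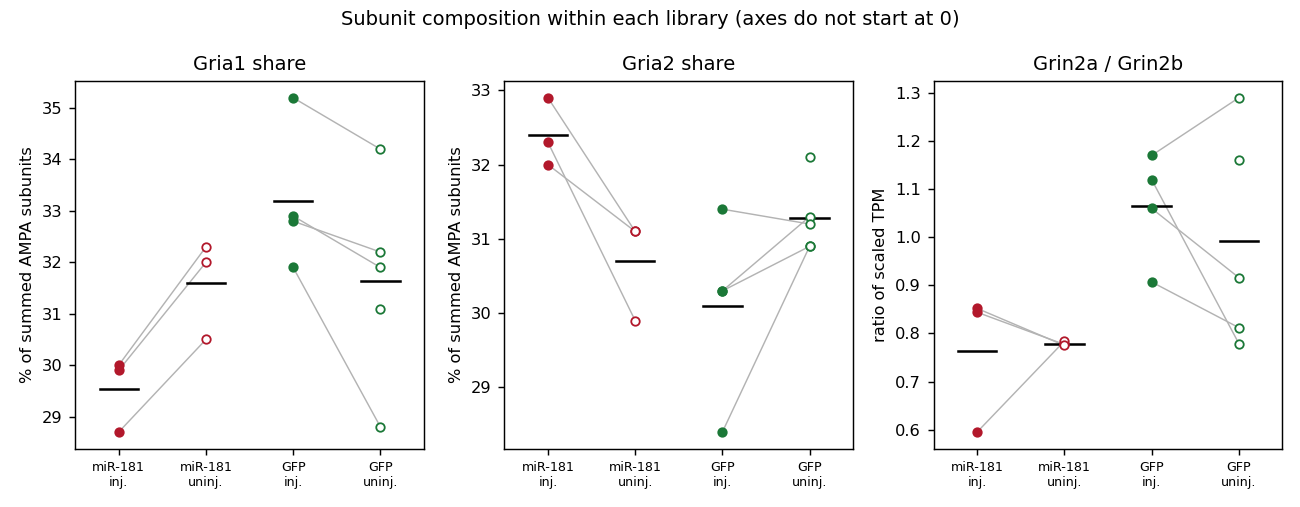
Gria1 and Gria2 as a percentage of the 4 AMPA subunits, and the ratio of Grin2a to Grin2b, in each library; axes do not start at 0. Filled points are injected sides, open points uninjected sides, lines join the sides of 1 mouse and black bars are means. The Gria1 share is lower on the injected side in each of the 3 miR-181 mice and higher in each of the 4 GFP mice, a split flagged by a screen and not tested.

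Among the NMDA subunits Grin1 took 67.2% of the sum in miR-181 injected sides and 67.7% in uninjected sides, and 70.3% in GFP injected sides and 69.7% in uninjected sides. Grin3a took 9.23% and 9.42% in the miR-181 set, and 8.74% and 8.60% in the GFP set, in injected and uninjected sides. The ratio of Grin2a to Grin2b averaged 0.763 ± 0.146 in miR-181 injected sides and 0.779 ± 0.00471 in uninjected sides. With GFP it averaged 1.07 ± 0.115 in injected and 0.992 ± 0.225 in uninjected sides. By mouse, the injected side differed by 0.0670, -0.189 and 0.0766 in the miR-181 set and by -0.119, 0.341, 0.148 and 0.0949 in the GFP set, with both signs in each. The 4 AMPA subunits together summed to 295 ± 22.4 scaled TPM in miR-181 injected sides and 323 ± 17.6 in uninjected sides, and to 244 ± 12.1 and 263 ± 13.1 in the GFP set. The 6 NMDA subunits summed to 229 ± 10.5 and 258 ± 6.13 in the miR-181 set, and to 238 ± 6.83 and 244 ± 19.0 in the GFP set, again for injected and uninjected sides.

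Marker RNA of several cell types also differed between the sides. The 14 pan-neuronal markers summed to between 5609 and 6497 scaled TPM in miR-181 injected sides and between 6785 and 7047 in uninjected sides, with no overlap, and 13 of the 14 had a log2 change below 0, with a median of -0.20. One of them, Ina, a neurofilament protein, fell to 130 ± 20.9 scaled TPM in injected sides, against 204 ± 8.09 in uninjected sides (log2 change -0.65 ± 0.11, adjusted p = 0.0243, and up to 0.110 without 1 library). In GFP mice the sums were between 6666 and 6977 in injected and between 6715 and 7146 in uninjected sides, and 7 of 14 markers were below 0. By mouse, the median change of the pan-neuronal markers was -0.07, -0.36 and -0.21 for the 3 miR-181 mice and lay between -0.02 and 0.02 for the 4 GFP mice. That of the 10 subunits was -0.11, -0.19 and -0.20 for the miR-181 mice, against -0.01, -0.15, -0.11 and -0.12 for the GFP mice. GABA neuron markers (7 genes) summed to between 1045 and 1183 in miR-181 injected sides and between 1256 and 1359 in uninjected sides, and to between 1242 and 1325 against between 1185 and 1356 in the GFP set. Of 12 dopamine neuron markers, 11 had a log2 change below 0 in the miR-181 set and 0 in the GFP set, none passed, and the medians were -0.27 and 0.14. By mouse, their median change was -0.00, -0.81 and 0.06 for miR-181 mice 1, 2 and 3. For GFP mice 1 to 4 it was 0.00, -0.02, 0.37 and 0.20. Their sum was 1140 in the injected and 1985 in the uninjected side of miR-181 mouse 2. It was 2036 and 1989 in mouse 1, and 1541 and 1500 in mouse 3. Astrocyte markers (9 genes) summed to between 3137 and 3506 in miR-181 injected sides, against 2802 to 2956 in uninjected sides, and to between 2967 and 3245 in GFP injected sides, against 2626 to 2968. Of these 9 genes, 4 had a log2 change below 0 in the miR-181 set and 1 in the GFP set, with medians of 0.04 and 0.06. Gfap, an astrocyte filament gene, passed as higher in both sets, at 815 ± 172 in miR-181 injected sides and 413 ± 50.4 in uninjected sides (adjusted p = 0.0206), and at 470 ± 88.8 in GFP injected sides and 266 ± 60.3 in uninjected sides (adjusted p = 0.0492). Those calls were lost in 4 of 6 and 7 of 9 fits that left out 1 library. Aqp4, an astrocyte water channel gene, passed as higher in the miR-181 set (adjusted p = 0.0340), a call lost in 5 of 6 such fits. Microglia markers (10 genes) summed to between 1149 and 2006 in miR-181 injected sides, against 516 to 539 in uninjected sides, and to between 757 and 989 in GFP injected sides, against 399 to 541. T cell markers (7 genes) reached between 36.4 and 128 in miR-181 injected sides, against 12.2 to 17.4 in uninjected sides, and between 24.1 and 28.5 in GFP injected sides, against 9.23 to 19.9. Thalamus markers (6 genes) had median changes by mouse of -0.04, 0.34 and 0.37 with miR-181, and of 0.30, 0.26, -0.63 and -0.65 with GFP. Cholinergic neuron markers (3 genes), tested in the miR-181 set only, had medians of -0.45, -1.25 and -0.07. No defining marker of these neuronal, thalamus, astrocyte, microglial or T cell lists was at 0 in a whole group, and their part in the subunit values was not tested.

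**Figure D5:**
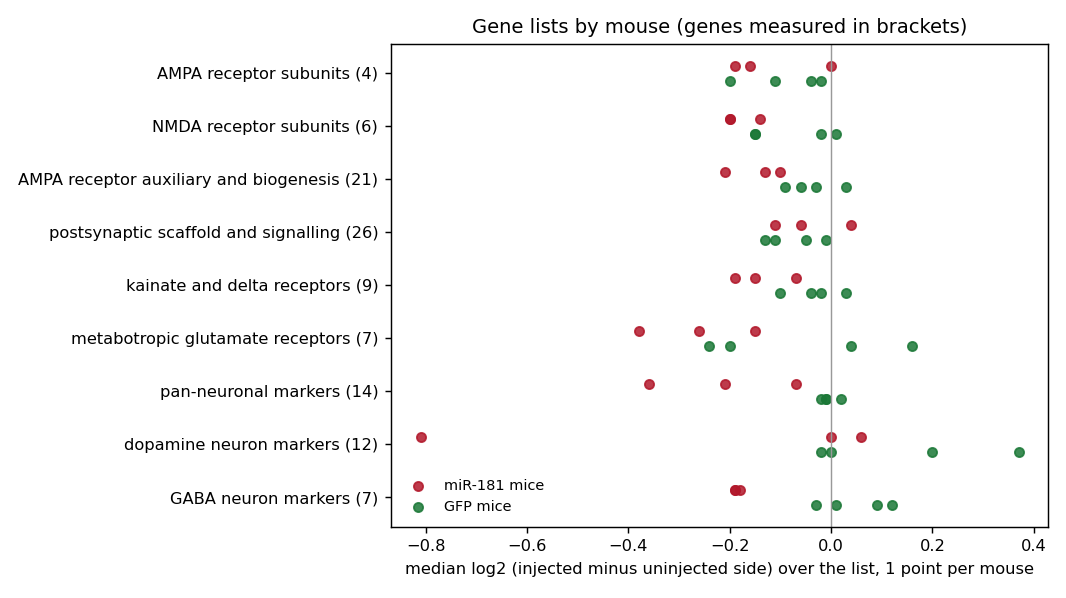
Median log2 change of injected minus uninjected side over each gene list, with 1 point per mouse (3 red miR-181 mice above 4 green GFP mice in each row) and the number of genes in brackets. The AMPA and NMDA subunit medians lie between -0.20 and 0.01, and the pan-neuronal medians reach -0.36 in the miR-181 set and stay within 0.02 of 0 in the GFP set.

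Few of the genes that work with these receptors passed the test, and some that did not pass had larger estimates than the subunits. Of 21 genes for AMPA receptor auxiliary subunits and biogenesis, none passed in either set, with median log2 changes of -0.12 for miR-181 and -0.03 for GFP. Cacng8, a transmembrane AMPA receptor regulatory protein, averaged 9.33 ± 0.683 scaled TPM in miR-181 injected sides and 11.4 ± 0.376 in uninjected sides (log2 change -0.28 ± 0.09, adjusted p = 0.114). Adarb1, the enzyme that edits the Gria2 transcript, averaged 90.6 ± 12 and 115 ± 10.7 (log2 change -0.35 ± 0.11, adjusted p = 0.116). Frrs1l, needed for AMPA receptor assembly, averaged 38.3 ± 5.91 and 48.3 ± 2.21 (adjusted p = 0.125). Of 26 genes for postsynaptic scaffold and signalling, 1 passed as lower in the miR-181 set and none in the GFP set, with a median of -0.05 in each. That gene was Dlg2, which encodes the scaffold PSD-93. It had 77.4, 70.0 and 72.4 scaled TPM in miR-181 injected sides, against 83.7, 92.2 and 92.5 in uninjected sides (log2 change -0.29 ± 0.06, adjusted p = 0.0450). The call was lost in 5 of 6 fits that left out 1 library, with an adjusted p of up to 0.172, and with mouse as a block (adjusted p = 0.0882). With GFP, Dlg2 averaged 60.4 ± 2.42 in injected and 64.9 ± 2.49 in uninjected sides (adjusted p = 0.493).

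Among the metabotropic receptors 1 gene passed. Grm5, which encodes the Gq-coupled receptor mGluR5, fell to 24.6 ± 2.48 scaled TPM in miR-181 injected sides, against 36.6 ± 1.92 in uninjected sides (SD, n = 3 each). Its values were 27.3, 22.3 and 24.3 in injected sides, against 35.1, 35.9 and 38.7 in uninjected sides, a log2 change of -0.56 ± 0.08 (adjusted p = 0.0161). The call was lost in 4 of 6 fits without 1 library, with an adjusted p of up to 0.0827, and stood with mouse as a block (adjusted p = 0.0346). GFP injected sides had 23.0 ± 1.93, against 24.7 ± 2.61 in uninjected sides (adjusted p = 0.779). The difference in change between the sets was -0.45 ± 0.12 (adjusted p = 0.154). Of the 7 metabotropic receptor genes tested, Grm5 alone passed in the miR-181 set and none passed in the GFP set, with medians of -0.16 and -0.10. None of 9 kainate and delta receptor genes passed in either set, with medians of -0.12 and 0.00. Grik4, a kainate subunit, had the smallest p among them for the difference between sets, at -0.41 ± 0.10 (adjusted p = 0.142). None of the genes for glutamate release, uptake and recycling passed, 9 tested for miR-181 and 8 for GFP, with medians of 0.01 and -0.07. No gene of these glutamate receptor and synapse lists passed for the difference between sets.

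The genes whose levels tracked each subunit most closely were read from deviations of the 15 libraries from their own group means, over 11767 genes with a mean of 5 scaled TPM or more. The points share libraries, library scaling and tissue dissection, and the correlations are descriptions. The 2 genes named per subunit had the highest r of all genes compared other than subunits, so each r is the top of a large search. The r that unrelated genes would reach in such a search was not tested. Grin1 tracked Slc9a5, a sodium-proton exchanger (r = 0.945), and Clstn1, a calsyntenin (r = 0.916). Gria2 tracked Adam22, the neuronal receptor for LGI1 (r = 0.922), and Cntnap5a (r = 0.913), and Gria4 tracked Opcml (r = 0.931) and Armc8 (r = 0.921). Gria1 was closest to Cpne6, a neuronal copine (r = 0.896), and Ncald, a neuronal calcium sensor (r = 0.886), and Gria3 to Atrn (r = 0.896) and Pak1 (r = 0.887). Among NMDA subunits Grin2a was closest to Scn1a, a voltage-gated sodium channel (r = 0.922), and St8sia1 (r = 0.921), and Grin2b to Zc3h12b (r = 0.902) and Lrp8 (r = 0.870). Grin2c was closest to Mast3 (r = 0.911) and Mapkapk5 (r = 0.908), Grin2d to Zfp651 (r = 0.942) and Trim28 (r = 0.934), and Grin3a to Slc16a7 (r = 0.935) and Wnk3 (r = 0.907). Between subunits the closest pairs were Gria4 with Grin2a (r = 0.83), Gria2 with Gria4 (r = 0.80) and Gria1 with Grin3a (r = 0.78). Grin2c ran against Grin2a (r = -0.61), Gria1 (r = -0.47) and Grin3a (r = -0.45).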

How the data were processed

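The authors' 2 deposited tables, 1 per mouse set, give each library's value per gene as a signal. Per the submitters' processing notes, the build was GRCm38 and the tools were kallisto 0.43.1, which estimates transcript abundance, and sleuth 0.30.0. They are taken here as TPM after division by a size factor of each library, which is inferred from library sums that are not equal. The deposited p-value columns used here are the authors' q-values of both their tests. Each table has 36660 rows with values, and 396 (miR-181) and 403 (GFP) rows that repeated another row's symbol and values were left out, which was decided with the data in view.

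Each table was tested on its own with limma 3.58.1 in R 4.3.3 on log2(value + 0.5), with an intensity trend, for genes with a mean of 1 or more, with Benjamini-Hochberg adjustment over all of them and no term for mouse. Fold changes are on that log2 scale. The sets were compared by limma on the log2 change per mouse, for 3 miR-181 and 4 GFP mice. Sides with the same number come from the same mouse per the labels, so the numbers pair them. Deviations of the sides of 1 mouse correlated at 0.140 to 0.257 for miR-181 and at 0.0177 to 0.192 for GFP. Alternatives were other pseudocounts, filters and scalings, no trend, mouse as a block and leaving out libraries or mice. The block kept only mice with both sides, so GFP mouse 5 was left out of that fit. The main fits within each set were tested on simulated data with each gene's own spread. The simulation for the comparison between sets used invented noise and a random trend, not those of the data. The fit with mouse as a block was not simulated. The design assumed no unit other than this one, and 0 columns of per-sample values were left unused. Subunits and gene lists were chosen with earlier results of these data known. All 10 subunits are named; of other lists, genes that passed, or up to 4 with the smallest p, were open to naming, and for likeness the 2 genes with the highest Pearson r per subunit. The annotation is GENCODE's for GRCm38, and microRNA sequences are RefSeq's.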

Additional observations from a re-analysis of the deposited data

Results flagged for a closer look

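Each level, sum, share and ratio of the subunits (10 levels and 16 sums, shares and ratios) was screened for a set of mice moving one way while every mouse of the other set moved the other way. The share of Gria1 among the 4 AMPA receptor subunits did so. The injected side differed from the uninjected side by a mean of -2.07 percentage points over 3 miR-181 mice (-2.10, -1.87 and -2.24) and by 1.44 over 4 GFP mice (1.04, 1.03, 0.626 and 3.08). The ratio of Gria2 to Gria1, which rests on the same Gria1 values, did so as well, with mean differences of 0.125 over the miR-181 mice (0.10, 0.127 and 0.149) and -0.0728 over the GFP mice (-0.0601, -0.0979, -0.0125 and -0.121). These differences between the sets were not tested, nor was how often chance would give such a split in a screen of this size.

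Of 52 groups of 4 or 5 values, 1 had a library that stood apart by Dixon's criterion, where chance flags about 1 in 20. It was the summed AMPA subunits of GFP uninjected sides, where mouse 1 was at 240 scaled TPM, low against the other 4. That library also held pituitary hormone RNA at 50092 scaled TPM, whose part in the sum was not tested.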

How the results depend on the processing

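No subunit passed the threshold in any alternative, with 1 exception: Grin1, 1 called subunit without the injected library of miR-181 mouse 1 (0 called without any other library or mouse). The number of all genes that passed moved far more. For miR-181 injected against uninjected sides it was 908, against 315 with no filter, 449 with no intensity trend, between 117 and 1924 without 1 library (1032, 107 and 1 without both sides of mice 1, 2 and 3). Median centring gave 634 higher and 468 lower genes, against 678 and 230. For GFP it was 206, against 136 with a filter at a mean of 5, 135 with the replicate block and between 108 and 255 without 1 library (142, 64, 133 and 73 without both sides of mice 1, 2, 3 and 4). For the difference between sets it was 5, against 1 with no filter, 1 with quantile normalization, 3 with no intensity trend and between 1 and 323 without single mice. With mouse as a block, 718 genes passed in the miR-181 set, and no subunit's call changed.

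Direction changed only in estimates near 0. With the replicate block, which left out GFP mouse 5, Grin3a was 0.017 (log2) in the GFP set. It was also 0.017 with no block and without the uninjected library of mouse 5. For the difference between sets Grin2d was -0.028 with median centring and -0.043 with quantile normalization. Leaving out single libraries or mice moved the GFP estimate of Gria1 between -0.08 and 0.001, Grin1 between -0.06 and 0.029 (0.016 at most without 1 library), Grin2c between -0.07 and 0.06 (0.045; 0.026 without mouse 4), Grin2d between -0.07 and 0.043 (0.012 without mouse 4) and Grin3a between -0.06 and 0.021. It moved Grin2d between -0.08 and 0.06 (0.035 without the uninjected side of mouse 1) in the miR-181 set, and for the difference between sets moved Grin2a between -0.07 and 0.044 and Grin2d between -0.041 and 0.09. The cause of these changes was not tested. With 3 mice given miR-181, 95% intervals of subunits reached -0.46 (Grin2a), and read depth per library is unknown.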
